A study of Mus musculus with 21 samples.

Results

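Immune checkpoint receptors and ligands were followed as a set of 10 genes chosen by name, out of 32285 genes in the count matrix. The set holds the receptors Pdcd1, Ctla4, Tigit, Lag3 and Havcr2 and the ligands Cd274, Pdcd1lg2, Cd80, Cd86 and Lgals9. Their raw UMIs (unique molecular identifiers, 1 per captured transcript) were counted in single-cell libraries of MT-ret mouse melanoma. Fragments of MT-ret tumor were transplanted under the skin of 8- to 10-week-old male and female mT/mG mice, so that host cells carried tdTomato and the engrafted tumor cells carried no label. No Cre was used, so tdTomato marked all host cell types alike.

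The groups were the unchallenged lung of mT/mG mice without a tumor, host cells of the tumor microenvironment (TME) sorted from lung metastases or from primary skin tumors, and unlabelled malignant melanoma (MM) cells sorted from either site. No unchallenged skin was among them. A difference between primary tumor and unchallenged lung can therefore not be told apart from a difference between skin and lung. Host cells were sorted as living tdTomato+ cells, in some libraries with CD45+ leukocytes depleted, and no source read here ties a gate to a library. The number of leukocytes in a library can therefore not be told apart from its gate, and shares of cell types between tissues were not compared. Suspensions had been cryopreserved before sorting. The paper states that metastasis samples held a small amount of adjacent tissue without tumor, so their host cells can include cells of the surrounding lung.

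Checkpoint receptors are brakes on lymphocytes. PD-1 (Pdcd1) binds PD-L1 (Cd274) and PD-L2 (Pdcd1lg2) and dampens T cell receptor signalling, while CTLA-4 competes with CD28 for CD80 and CD86 on antigen-presenting cells. TIM-3 (Havcr2) was described as a receptor of galectin-9 (Lgals9), LAG-3 binds MHC class II, and TIGIT binds nectin family proteins. PD-L1 is induced by interferons and is a target of antibody therapy in melanoma.

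On the GRCm38 assembly, Cd274 (chr19:29367455-29388095) and Pdcd1lg2 (chr19:29410919-29471161) are neighbours on the plus strand. Ctla4 (chr1:60887000-60915832, plus) and Pdcd1 (chr1:94038305-94052553, minus) lie on 1 chromosome. Cd86 (chr16:36603869-36666081, minus), Cd80 (chr16:38455561-38496335, plus) and Tigit (chr16:43648867-43664146, minus) lie on another. Havcr2 (chr11:46454935-46481255, plus), Lgals9 (chr11:78962974-78984946, minus) and Lag3 (chr6:124904361-124911705, minus) complete the set.

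The 250 bases before the annotated start are shown for the 2 PD-1 ligands, followed in neutrophils of the tumor sites below, and for Lgals9, the member led by endothelial cells. They were read 5′ to 3′ on the gene's strand from RefSeq (GRCm38.p6), where 8 of the 10 members matched and Lag3 and Cd86 did not.
Cd274, chr19:29367188-29367437, plus: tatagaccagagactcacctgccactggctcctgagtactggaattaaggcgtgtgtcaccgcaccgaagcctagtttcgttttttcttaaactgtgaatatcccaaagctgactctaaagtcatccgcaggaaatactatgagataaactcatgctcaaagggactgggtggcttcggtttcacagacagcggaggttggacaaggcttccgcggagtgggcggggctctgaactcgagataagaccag
Pdcd1lg2, chr19:29410669-29410918, plus: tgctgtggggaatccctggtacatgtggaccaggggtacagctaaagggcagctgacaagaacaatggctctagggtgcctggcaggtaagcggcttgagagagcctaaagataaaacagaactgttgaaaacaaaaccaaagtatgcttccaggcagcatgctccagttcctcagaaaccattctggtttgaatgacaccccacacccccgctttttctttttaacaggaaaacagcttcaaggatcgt
Lgals9, chr11:78984925-78985174, minus: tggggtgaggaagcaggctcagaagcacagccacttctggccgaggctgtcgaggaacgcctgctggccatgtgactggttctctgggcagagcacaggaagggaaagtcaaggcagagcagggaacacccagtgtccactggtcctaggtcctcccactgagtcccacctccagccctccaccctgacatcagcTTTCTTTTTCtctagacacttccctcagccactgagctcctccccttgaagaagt
Capitals in Lgals9 mark, on the reverse strand, an interferon-type element (2 copies of GAAA with 2 bases between them), which begins 55 bases before the start. Searched on both strands, this element was present in 2.98% of 32851 promoter windows of this length, TTCNNNGAA in 7.02%, an NF-kB-type element (GGGA, any base, then TTTCC) in 0.356% and CACGTG in 6.02%. The Lgals9 match was the only one in the windows of the 8 members, which says only that these letters are not in the other windows.

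The matrix held 110283 cells under 24 library names. Of these names, 5 repeated the cells of another, which left 100359 cells in 16 libraries: 4 of unchallenged lung (37386 cells), 4 of lung metastasis TME (7648), 4 of primary tumor TME (6477), 2 of metastasis MM (11948) and 2 of primary tumor MM (36900). Libraries of the 3 tissues held between 1777036 and 53506609 UMIs, and no pair of libraries shared more than 1.20% of the smaller library's barcodes. The library named lung metastasis TME 1-3 pooled 2 mice and primary tumor TME 1-3 pooled 3. P-values measure the spread between these libraries.

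Cells were clustered without the 10 members and named from marker genes. The named classes held, over the 3 tissues in the order unchallenged lung, metastasis and primary tumor, 1443, 258 and 17 T cells, 1727, 124 and 4 NK cells, and 1627, 363 and 292 neutrophils. C1q macrophages numbered 369, 241 and 2314, endothelial cells 7882, 1636 and 552, and fibroblasts 2525, 500 and 2397. Melanoma cells numbered 49972 over all libraries, and 3.76% of all cells stayed unnamed. No doublets were removed.

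Unchallenged lung replicate 6 stood apart. It held 25966 of the 37386 unchallenged lung cells at a median of 1605 UMIs. With cells thinned to 1000 UMIs, a UMI of the leukocyte gene Ptprc was found in 53.8% to 61.5% of its alveolar type 2, club and ciliated cells (median depth 1746 to 2011 UMIs), against 0% to 11.5% in the same classes of the other libraries (2771 to 7414 UMIs). Cd274 stood at 27.7 to 35.8 CPM (UMIs per 1000000 UMIs) in these epithelial classes of replicate 6 and at no more than 6.78 CPM elsewhere, and Havcr2 at 30.6 to 35.5 against no more than 3.72 CPM. Levels of Cd274 and Havcr2 up to these values in this library were no higher than its epithelial background, and where leaving it out changes an order or a call below, the value without it is given. The class with the highest mean was the same without it for each of the 10 members.

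**Figure D1:**
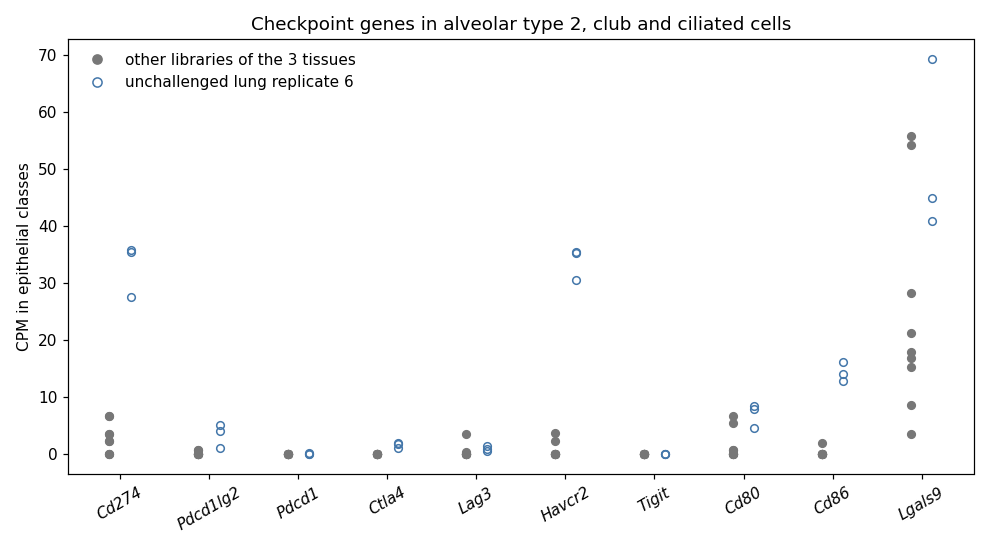
Level of each gene (CPM, linear axis) in alveolar type 2, club and ciliated cells, 1 point per class and library with at least 20 cells. Open circles are unchallenged lung replicate 6 and filled points the other libraries: Cd274, Havcr2 and Cd86 lie above every other library in replicate 6, at 27.7 to 35.8, 30.6 to 35.5 and 12.9 to 16.1 CPM.

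Depth differed among the members. Lgals9 gave 14861 UMIs in all, Havcr2 6913, Cd274 6613, Cd86 4309 and Cd80 1400. Pdcd1lg2 gave 659, Ctla4 284, Lag3 262, Pdcd1 123 and Tigit 20. Levels are CPM, the UMIs of a gene per 1000000 UMIs of a class in a library, over libraries with at least 20 cells of the class, and such sums do not tell fewer expressing cells from less RNA per cell. They are not per length, so levels are compared within a gene only.

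**Figure D2:**
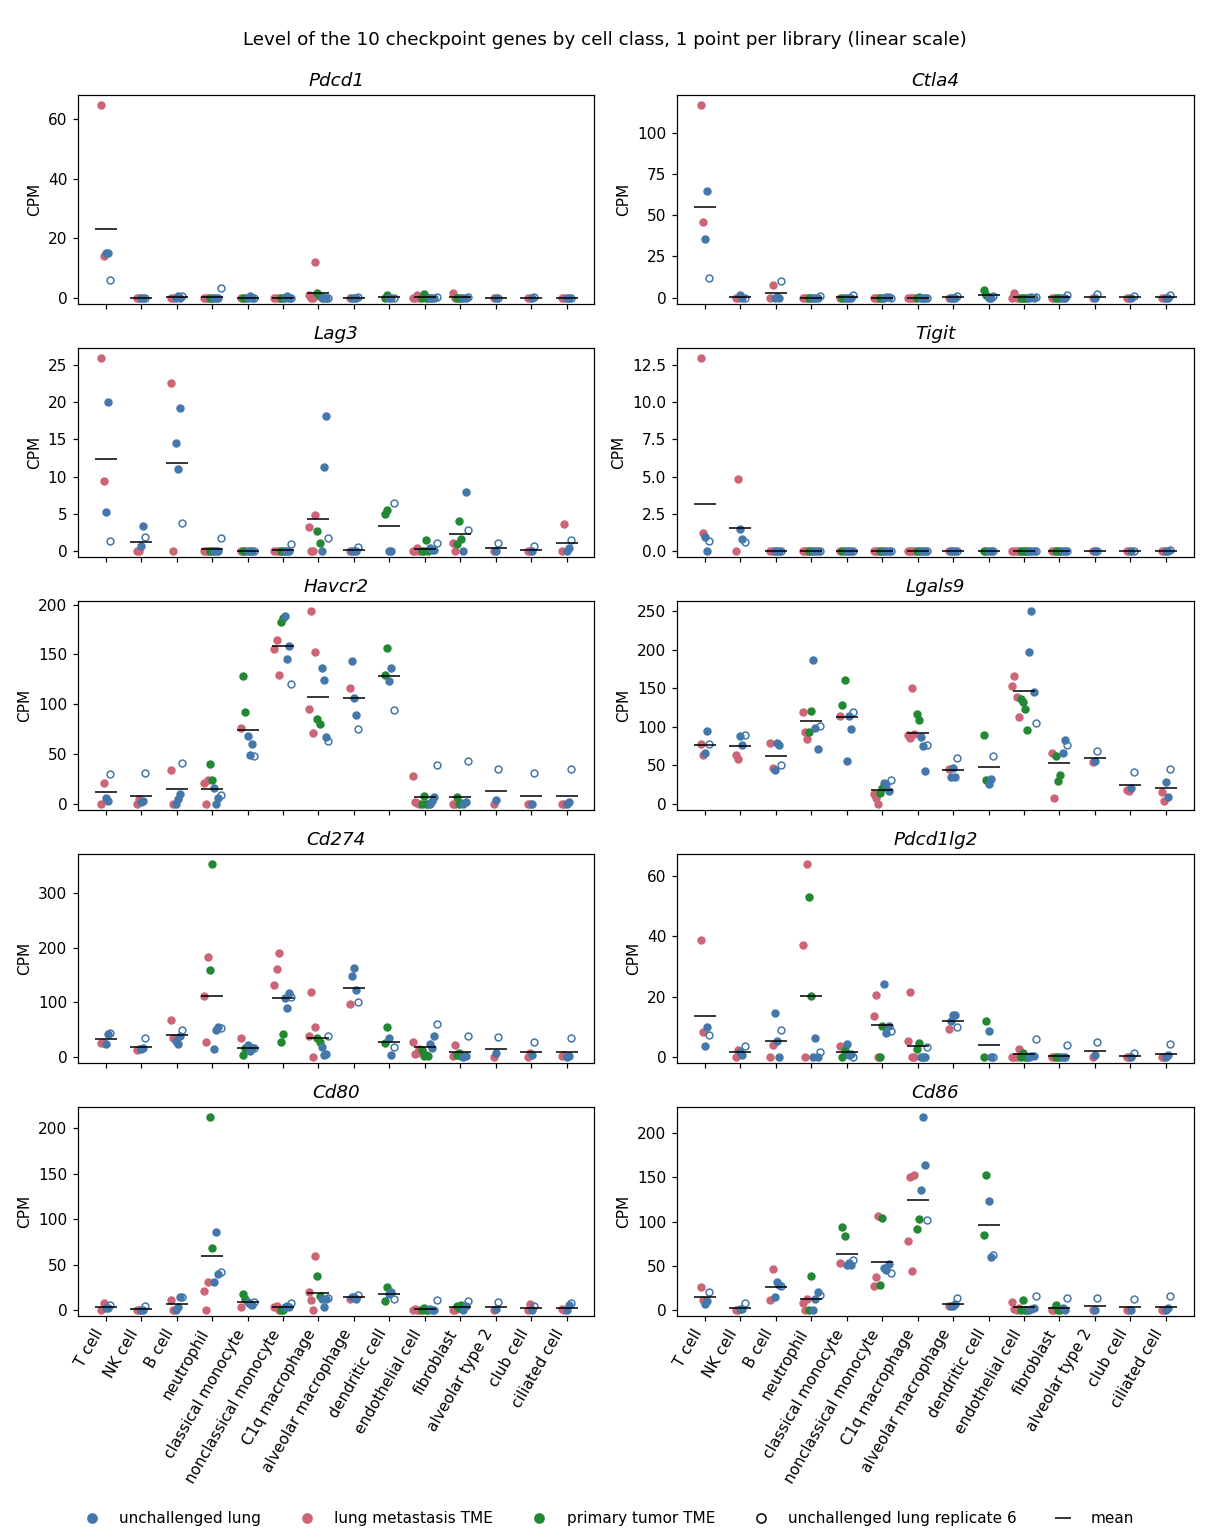
Level of each member (CPM, linear axes that differ between panels) in 14 cell classes, 1 point per library with at least 20 cells of the class, coloured by tissue, open for unchallenged lung replicate 6, with bars at the mean over libraries. Pdcd1 and Ctla4 have their highest mean in T cells (23.0 and 55.0 CPM), Havcr2 in nonclassical monocytes (158.9 CPM), Cd274 in alveolar macrophages (126 CPM) and Lgals9 in endothelial cells (147 CPM).

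Pdcd1, the gene of PD-1, was detected mainly in T cells. Its level there was 15.2, 15.0 and 6.01 CPM in unchallenged lung replicates 4, 5 and 6, and 65.0 and 14.1 CPM in lung metastasis TME 1-3 and 4, the 65.0 CPM resting on 5 UMIs in 31 cells. The mean of 23.0 ± 23.8 CPM (SD, n = 5 libraries) stood above C1q macrophages at 1.54 ± 3.70 CPM (n = 10), but the difference was smaller than the T cell SD. The T cell mean was 12.6 ± 4.39 CPM without metastasis TME 1-3 (n = 4) and 47.4 CPM with libraries of at least 10 cells, and the C1q macrophage mean was 0.390 CPM without metastasis TME 6. Without unchallenged lung 6 the means were 27.3 ± 25.1 (n = 4) and 1.72 ± 3.88 CPM (n = 9), which differed by more than either SD. C1q macrophages held 5 Pdcd1 UMIs in metastasis TME 6 (11.9 CPM), 1 in metastasis TME 1-3, 4 in primary tumor TME 1-3 (1.75 CPM) and 8 in primary tumor TME 4 (0.688 CPM). The 4 unchallenged lungs held 0, which allows up to 5.02 to 18.6 CPM per library, so a difference from the primary tumors was not detectable at this depth. In melanoma cells Pdcd1 was found in 0 of 46492 sorted cells of at least 1000 UMIs thinned to that depth, which allows up to 0.00645% of cells with a UMI at that depth and sets no limit on cells expressing the gene.

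Ctla4, which encodes CTLA-4, was likewise highest in T cells. They held 35.5, 65.0 and 12.0 CPM in unchallenged lung 4, 5 and 6 and 117 and 45.7 CPM in the 2 metastasis libraries. The metastasis and lung values overlapped. The T cell mean of 55.0 ± 39.5 CPM (n = 5) exceeded B cells, next in order at 3.07 ± 4.63 CPM (n = 6), by more than either SD, and without unchallenged lung 6 it was 65.8 ± 36.3 CPM (n = 4), with dendritic cells next at 1.71 ± 2.36 CPM (n = 4). After thinning to 1000 UMIs, 1.77% of T cells had a Ctla4 UMI (2.27% without unchallenged lung 6), against 0.0571% of NK cells and 0 of 2838 C1q macrophages, which allows up to 0.106%.

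Against NK cells of the same libraries, 5 of 8 members tested differed in T cells (edgeR quasi-likelihood, library as a block, 5 libraries), where 16.2% of all genes did. Classes and contrasts came from the same cells, although the members took no part in the clustering. Ctla4 was higher in T cells by 5.46 ± 0.48 (log2, SE, adjusted p = 1.78e-07) and in 5 of 5 libraries. Pdcd1 had no UMI in NK cells of any library, so no fold is given. Both calls remained under each alternative that tested them (10 and 7). Cd86 was higher by 1.91 ± 0.49 (adjusted p = 0.0103, 5 of 5 libraries), Lag3 by 2.29 ± 0.69 (adjusted p = 0.0286, 4 of 5) and Cd274 by 0.71 ± 0.23 (adjusted p = 0.0475, 5 of 5). The calls were lost in 1 of 8, 4 of 9 and 7 of 10 alternatives that tested them, including the fit without unchallenged lung 4 for all of them. Without unchallenged lung 6, Ctla4, Lag3 and Cd274 were called among 4 members tested, and Pdcd1 and Cd86 did not pass the filter. Ctla4, Pdcd1, Lag3 and Cd86 passed the filter on low counts through T cells alone, with 0 NK cell libraries at its minimum, so they had to differ to be tested, and the count of 5 of 8 is a description. With no filter all 10 members were tested and 4 were called, where 10.4% of genes were: Ctla4, Pdcd1 (adjusted p = 1.2e-12), Lag3 (adjusted p = 0.016) and Cd86 (adjusted p = 0.0014), but not Cd274 (adjusted p = 0.0607). With the filter the edgeR adjusted p of Pdcd1 was 9.77e-05, so its far smaller value with no filter is not read as spread between libraries. Pdcd1lg2 (1.60 ± 0.59, adjusted p = 0.0779), Havcr2 (0.61 ± 0.40, adjusted p = 0.361) and Lgals9 (-0.11 ± 0.16, adjusted p = 0.745) were not called.

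T cells were then split by a UMI of Foxp3, the transcription factor of regulatory T cells, else of Cd8a or Cd8b1, else of Cd4, with all UMIs of a cell and no thinning. Without unchallenged lung 6, Ctla4 was found in 24 of 43 Foxp3 cells (55.8%, exact 95% interval 39.9 to 70.9), in 21 of 202 Cd4 cells (10.4%, 6.55 to 15.5) and in 6 of 256 Cd8 cells (2.34%, 0.865 to 5.03). Pdcd1 was found in 12 Foxp3 cells (27.9%, 15.3 to 43.7), 7 Cd4 cells (3.47%) and 10 Cd8 cells (3.91%). Foxp3 and Cd4 cells had near-equal depth (medians 4998 and 4979.5 UMIs) and Cd8 cells 4317. The cells are pooled over libraries and intervals cover counting error only. Within unchallenged lung 4, which gave 21 of the Foxp3 cells, Ctla4 was in 14 (66.7%), and within metastasis TME 4 in 5 of 13 (38.5%).

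**Figure D3:**
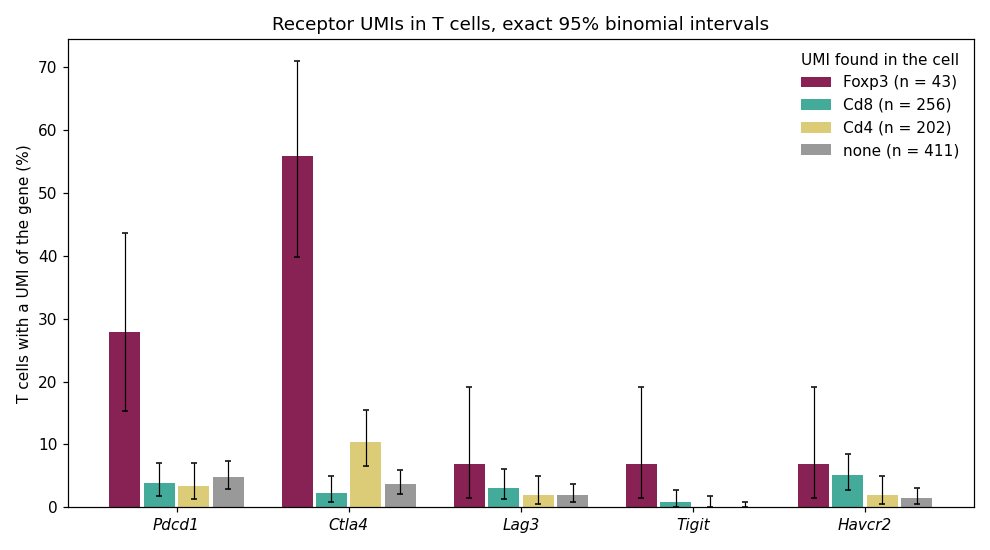
Share of T cells (%) with a UMI of each receptor, by the lineage gene found in the cell, over the 3 tissues without unchallenged lung replicate 6, with exact 95% binomial intervals. Ctla4 reaches 55.8% and Pdcd1 27.9% in the 43 cells with Foxp3, while intervals overlap between all subsets for Lag3.

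Tigit and Lag3 were sparse. Tigit, which competes with CD226 for nectin ligands, gave 19 UMIs in the 3 tissues: 3.16 ± 5.52 CPM in T cells and 1.55 ± 1.91 CPM in NK cells (n = 5 each), with 0 UMIs in all other named classes except ciliated cells. Without metastasis TME 1-3 the T cell mean was 0.697 CPM, and without metastasis TME 4 the NK cell mean was 0.734 CPM (n = 4 each). Lag3 stood at 5.21, 20.0 and 1.34 CPM in T cells of unchallenged lung 4, 5 and 6 and at 26.0 and 9.37 CPM in those of the metastases. B cells had a like level (11.9 ± 8.78 CPM, n = 6, against 12.4 ± 10.3 CPM, n = 5, in T cells). Neighbours in these orders did not differ beyond their spread, except that without unchallenged lung 6 Lag3 in B cells (13.5 ± 8.75 CPM, n = 5) exceeded C1q macrophages, next in order (4.57 ± 6.24 CPM, n = 9), by more than either SD.

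Havcr2, the gene of TIM-3, was a myeloid gene in these tissues. Nonclassical monocytes held 188, 145, 159 and 120.4 CPM in unchallenged lung 1, 4, 5 and 6, 155, 165 and 129 CPM in metastasis TME 1-3, 4 and 6, and 182 and 187 CPM in primary tumor TME 1-3 and 4. The 3 tissues overlapped in this class. Its mean of 158.9 ± 24.5 CPM (n = 9) exceeded dendritic cells at 128 ± 22.4 CPM (n = 5) by more than either SD, followed by C1q macrophages at 107 ± 43.3 (n = 10), alveolar macrophages at 106 ± 26.3 (n = 5) and classical monocytes at 74.6 ± 28.2 CPM (n = 7). Without unchallenged lung 6, alveolar macrophages (114 CPM, n = 4) stood before C1q macrophages (112 CPM, n = 9). T and NK cells reached 30.1 and 31.3 CPM in unchallenged lung 6, within that library's epithelial range or just below it, and 0 to 21.1 CPM elsewhere.

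Cd274, the gene of PD-L1, led in 3 myeloid classes that did not differ beyond their spread. Alveolar macrophages had 97.5 to 162 CPM in all 5 libraries (126 ± 28.7). Neutrophils had 112 ± 108 CPM (n = 9) and nonclassical monocytes 108 ± 51.5 CPM (n = 9). B cells were next at 40.6 ± 15.9 CPM (n = 6). Alveolar macrophages and nonclassical monocytes exceeded them by more than either SD, and neutrophils by less than the neutrophil SD. Melanoma cells were low, at 1.34 to 2.96 CPM over 5 libraries, and 0.222% of sorted melanoma cells (interval 0.181 to 0.269) had a Cd274 UMI at 1000 UMIs, against 0.123% of ciliated cells without unchallenged lung 6.

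Within libraries, nonclassical exceeded classical monocytes in Cd274 by 2.59 ± 0.15 (log2, adjusted p = 6.58e-14) and in Havcr2 by 1.20 ± 0.11 (adjusted p = 1.27e-09), both in 7 of 7 libraries, while Lgals9 went the other way at -2.30 ± 0.14 (adjusted p = 4.02e-13, lower in 7 of 7). In this contrast 40.9% of all genes were called, and Cd86 was not (-0.31 ± 0.13, adjusted p = 0.0611). Alveolar exceeded C1q macrophages in Cd274 by 2.15 ± 0.38 (adjusted p = 0.00144, 5 of 5 libraries). Cd86 went the other way, at log2 -3.86 ± 0.32 (adjusted p = 8.84e-06), as did Lgals9 at -0.72 ± 0.22 (adjusted p = 0.0324), with 20.3% of genes called. Cd86 passed the filter through C1q macrophages (1 alveolar macrophage library reached its minimum), so with it Cd86 had to differ to be tested. With no filter it was at -3.79 ± 0.27, with a far smaller edgeR adjusted p (1.7e-42) that is not read as spread between libraries. Havcr2 (0.17 ± 0.17), Cd80 (0.05 ± 0.39) and Pdcd1lg2 (adjusted p = 0.075) were not called there. With no filter Pdcd1lg2 was called (1.91 ± 0.65, edgeR adjusted p = 0.0321) and Lgals9 was not (adjusted p = 0.0532). Of the calls in these 2 contrasts Lgals9 in alveolar macrophages was lost in 5 of 10 alternatives, including the fits without metastasis TME 1-3, unchallenged lung 1 or unchallenged lung 4.

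Cd80 and Cd86, the B7 ligands that CD28 and CTLA-4 share, were divided among myeloid classes. Cd80 had its highest mean in neutrophils, at 59.0 ± 62.7 CPM (n = 9), then C1q macrophages at 18.5 ± 17.6 (n = 10) and dendritic cells at 17.2 ± 6.11 CPM (n = 5). Cd86 stood at 124 ± 50.0 CPM in C1q macrophages (n = 10), 96.6 ± 40.1 in dendritic cells (n = 5) and 63.3 ± 17.8 in classical monocytes (n = 7), orders whose neighbours lay within their spread. Neutrophils against classical monocytes of the same 7 libraries separated 5 members, with 62.4% of all genes called: Cd80 was higher by 3.07 ± 0.27 (adjusted p = 2.19e-09, 7 of 7 libraries), Cd274 by 2.71 ± 0.36 (adjusted p = 1.25e-06, 6 of 7) and Pdcd1lg2 by 2.60 ± 0.76 (adjusted p = 0.0052, 5 of 7), while Havcr2 (log2 -2.25 ± 0.27, adjusted p = 3.62e-07) and Cd86 (-1.37 ± 0.28, adjusted p = 0.00021) were lower in all 7. Each of these 5 calls was kept in every alternative tested. Cd80 and Pdcd1lg2 passed the filter through neutrophils (1 and 0 classical monocyte libraries reached its minimum), so with it they had to differ to be tested. With no filter the edgeR adjusted p of Cd80 was 1.2e-24, far smaller than with it, and is not read as spread between libraries. Lgals9 gave 0.10 ± 0.19 (adjusted p = 0.678).

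Dendritic cells exceeded C1q macrophages in Havcr2 by 0.65 ± 0.20 (log2, adjusted p = 0.0327, 4 of 5 libraries) and were lower in Lgals9 at -0.93 ± 0.27 (adjusted p = 0.0276, 5 of 5), in a contrast that called 18.6% of genes. Havcr2 lost the call in 5 of 10 alternatives and Lgals9 in 4. Cd86 (-0.23 ± 0.24), Cd80 (0.10 ± 0.38) and Cd274 (0.15 ± 0.35) were not called. Against fibroblasts, C1q macrophages were higher in Cd86 by 4.80 ± 0.65 (adjusted p = 0.000345) and in Havcr2 by 3.79 ± 0.84 (adjusted p = 0.00572), each in 6 of 6 libraries, where 35.7% of genes were called and Cd274 (1.17 ± 0.49, adjusted p = 0.0927) and Lgals9 (0.62 ± 0.42) were not. Both genes passed the filter through C1q macrophages (0 and 1 fibroblast libraries reached its minimum), so with it they had to differ to be tested. With no filter they were at 5.02 ± 0.49 and 4.06 ± 0.59. The edgeR adjusted p values were then far smaller (2.0e-09 and 2.2e-06) and are not read as spread between libraries.

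Lgals9, a soluble galectin, was the member most broadly detected. Endothelial cells held 198, 251, 145 and 104 CPM in unchallenged lung 1, 4, 5 and 6, 153, 166, 139 and 113 CPM in metastasis TME 1-3, 4, 5 and 6, and 136, 133, 124 and 96.5 CPM in primary tumor TME 1-3, 4, 5 and 6. The tissues overlapped. The endothelial mean of 147 ± 42.9 CPM (n = 12) was followed by classical monocytes at 113 ± 32.0 (n = 7) and neutrophils at 108 ± 33.3 CPM (n = 9), within the spread. Endothelial cells exceeded fibroblasts of the same libraries by 1.36 ± 0.27 (log2, adjusted p = 0.00382) in 8 of 8 libraries and in each of 13 alternatives, with 29.0% of genes called. Cd274 (0.82 ± 0.57), Cd86 (0.64 ± 0.60), Havcr2 (0.32 ± 0.56) and Cd80 (-1.58 ± 0.80) were not called in this contrast. Melanoma cells held 9.49 to 14.6 CPM.

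The study set metastasis and primary tumor against the unchallenged lung, and the members were compared between these tissues within each class. Where tissues are said not to overlap, the share of all genes that did the same was not counted. With so few libraries, non-overlap is a description. The filter on low counts passed 7 members in T cells, 1 to 5 in 11 other classes and 0 in club cells, and Tigit passed in no tissue comparison. In neutrophils, Cd274 was higher in both tumor sites. It stood at 15.5, 49.2, 54.6 and 52.5 CPM in unchallenged lung 1, 4, 5 and 6 (1, 8, 148 and 63 UMIs), at 111, 26.8 and 184 CPM in metastasis TME 1-3, 5 and 6 (27, 2 and 106 UMIs), and at 159 and 353 CPM in primary tumor TME 1-3 and 4 (12 and 208 UMIs). Primary tumors lay above every lung library, while metastasis TME 5, with 2 UMIs, fell among the lungs. Within sequencing run 1, which held 1 library of each tissue, the order was 15.5, 111 and 159 CPM for lung, metastasis and primary tumor, the lung value resting on 1 UMI. In run 2, unchallenged lung 4 was at 49.2 and primary tumor TME 4 at 353 CPM. In run 3, lungs 5 and 6 (54.6 and 52.5 CPM) lay between metastasis TME 5 and 6 (26.8 and 184 CPM).

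In metastasis neutrophils 2 of the 4 members tested were called higher, where 9.37% of genes were called and 7.63% higher. Cd274 was higher by 1.41 ± 0.41 (log2, edgeR adjusted p = 0.0423), and Pdcd1lg2 was the other. In primary tumor neutrophils 2 of 4 were called, where 5.0% of genes were called and 4.41% higher, Cd274 by 2.62 ± 0.43 (adjusted p = 0.00235) and again Pdcd1lg2. Pdcd1lg2 passed the filter on low counts through 1 metastasis and 1 primary tumor library and 0 lungs, so it had to differ to be tested, and both counts are descriptions. These comparisons share the unchallenged lungs. Lgals9 was not called in either, at 0.07 ± 0.34 and 0.30 ± 0.38. The metastasis call of Cd274 was lost in 9 of 15 alternatives, among them DESeq2 (adjusted p = 0.0743) and the fits without metastasis TME 6 (0.84, adjusted p = 0.344) and without unchallenged lung 6 (1.34, adjusted p = 0.113), and the primary tumor call was lost without primary tumor TME 4 alone (1.71, adjusted p = 0.256).

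Pdcd1lg2, the gene of PD-L2, was nearly absent from lung neutrophils. They held 0, 1, 0 and 2 UMIs in unchallenged lung 1, 4, 5 and 6, while metastasis TME 1-3, 5 and 6 held 9, 0 and 37 (37.2, 0 and 64.1 CPM) and primary tumor TME 1-3 and 4 held 4 and 12 (53.1 and 20.4 CPM). The pooled ratio to lung was 68.1 in metastases (46 against 3 UMIs, exact 95% counting interval 21.9 to 342) and 33.0 in primary tumors (16 against 3, 9.46 to 177). Single libraries moved it: the metastasis ratio was 39.2 without metastasis TME 6 (9.78 to 225), 24.5 without unchallenged lung 5 (7.86 to 123), 102 without unchallenged lung 4 (26.7 to 869) and 151 without unchallenged lung 6 (25.8 to 6098). The primary tumor ratio was 11.4 without unchallenged lung 5 (3.28 to 61.3), 70.7 without unchallenged lung 6 (10.99 to 2966) and 73.2 without primary tumor TME 4 (12.4 to 499.8). The fitted differences were 5.45 ± 1.06 and 4.94 ± 1.22 (log2), and with no filter, where 9 members were tested, 5.52 ± 0.76 (adjusted p = 8.89e-11) and 4.87 ± 0.89 (adjusted p = 7.7e-06). With the filter the edgeR adjusted p values were 0.00627 and 0.0304. The far smaller p values of the fit with no filter are therefore not read as a measure of spread between libraries. Without unchallenged lung 5 both calls were lost. The metastasis call was also lost with the replicate number as a block (4.18, adjusted p = 0.0536), and without metastasis TME 6 Pdcd1lg2 was not tested. The primary tumor call was also lost with the sequencing run as a block (5.24, adjusted p = 0.162), without unchallenged lung 6 (5.55, adjusted p = 0.0651) and without primary tumor TME 4 (5.65, adjusted p = 0.148). A UMI of both PD-1 ligands occurred in 0 of 1627 lung neutrophils, 21 of 363 metastasis neutrophils and 8 of 292 primary tumor neutrophils.

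Cd80 in neutrophils followed another order. Values were 31.1, 86.1, 40.2 and 41.7 CPM in the lungs, 20.6, 0 and 31.2 CPM in metastases and 212 and 67.9 CPM in primary tumors, with 1 primary tumor library inside the lung range. No call was made (metastasis against lung -0.89 ± 0.54, adjusted p = 0.303, and primary tumor against lung 1.38 ± 0.52, adjusted p = 0.153). Between metastasis and primary tumor 0 of 4 members were called by edgeR and 0 by DESeq2 (0.0732% of genes), and 2 had an unadjusted p under 0.05: Cd80 at -2.27 ± 0.62 (adjusted p = 0.256) and Cd274 at -1.20 ± 0.44 (adjusted p = 0.691). Pdcd1lg2 gave 0.51 ± 0.97 and Lgals9 -0.23 ± 0.41.

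The neutrophils of the tissues fell into different clusters. Cluster 3 of the leukocytes held 1455 of the 1627 lung neutrophils, and cluster 15 held 283 of the 363 of metastases and 285 of the 292 of primary tumors. Pooled over cells within cluster 15, Cd274 stood at 167 CPM in the lung (35 UMIs, 73 cells, exact interval 116 to 232), 168 CPM in metastases and 337 CPM in primary tumors. Single libraries set these values: without primary tumor TME 4, which held 252 of the 285 primary tumor cells, the last was 156 CPM (80.7 to 273), within the lung interval, and without unchallenged lung 5 the lung was at 94.9 CPM (8 UMIs, 41.0 to 187). Pdcd1lg2 in this cluster stood at 0 in the lung (0 UMIs, which allow up to 14.3 CPM), 58.1 in metastases (42.6 to 77.5) and 24.5 CPM in primary tumors, the last at 52.1 CPM without primary tumor TME 4 (4 UMIs, 14.2 to 133). Without unchallenged lung 5 the 0 UMIs of the lung allow up to 35.6 CPM (31 cells), above the 24.5 CPM of primary tumors. Without metastasis TME 6 the metastases stood at 39.7 CPM (18.1 to 75.3). In cluster 3, lung neutrophils had 45.8 CPM of Cd274. Markers of other cells moved with the tissue in this class: the C1q macrophage list summed to 123 to 416 CPM in lung, 313 to 578 in metastases and 597 to 3123 CPM in primary tumors, and the melanoma list to 0 to 5.00, 797 to 7493 and 652 to 876 CPM. Their part in the neutrophil results was not tested.

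**Figure D4:**
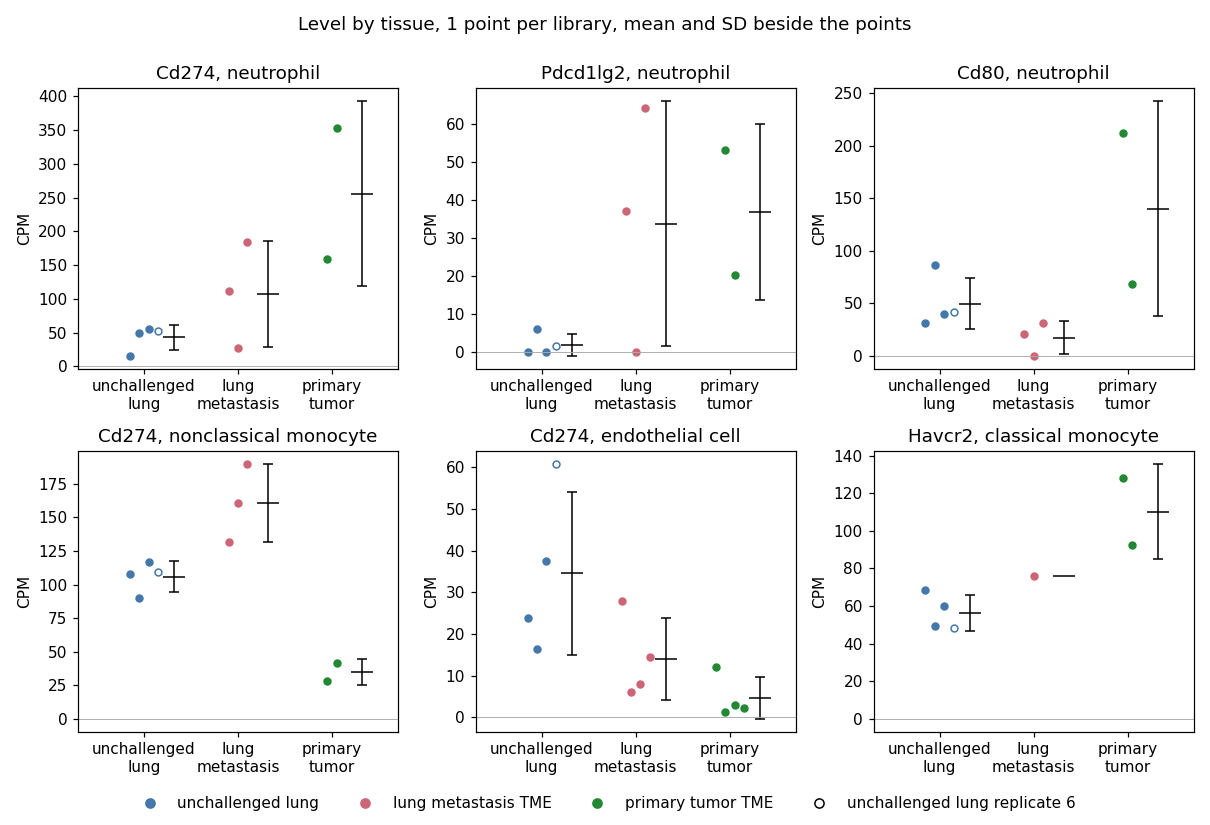
Level (CPM, linear axes) by tissue for 6 gene and class pairs, 1 point per library with at least 20 cells, open for unchallenged lung replicate 6, with the mean and SD beside the points (no SD for a single library). Neutrophil Cd274 reaches 159 and 353 CPM in the 2 primary tumor libraries above lungs of at most 54.6 CPM, and endothelial Cd274 runs the other way, from 16.3 to 60.8 CPM in lung to 1.28 to 12.0 CPM in primary tumors.

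In endothelial cells Cd274 was lower in primary tumors of the skin than in unchallenged lung. It stood at 23.8, 16.3, 37.6 and 60.8 CPM in unchallenged lung 1, 4, 5 and 6, at 27.8, 6.09, 7.92 and 14.6 CPM in metastasis TME 1-3, 4, 5 and 6, and at 12.0, 1.28, 2.84 and 2.26 CPM in primary tumor TME 1-3, 4, 5 and 6 (3, 1, 2 and 3 UMIs). Every primary tumor library was below every lung, and below the lungs of its own sequencing run, while the metastases overlapped both. The difference was -3.40 ± 0.67 (log2, adjusted p = 0.00311), 1 of 2 members tested, where 20.4% of genes were called and 10.8% lower. The call was kept in 18 of 18 alternatives, at -2.92 (adjusted p = 0.00319) without unchallenged lung 6. Cd274 passed the filter through the lungs (4 of 4 reached its minimum, and 1 of 4 primary tumors), and with no filter it was at -3.39 ± 0.63 (adjusted p = 0.00128). Lgals9 gave -0.45 ± 0.25 (adjusted p = 0.227).

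Taken as a class, metastasis endothelium lay between. Cd274 differed from lung by -1.58 ± 0.55 (adjusted p = 0.252, 1.12% of genes called) and from primary tumor by 1.82 ± 0.75 (adjusted p = 0.186, 7.4% called), with 0 of 2 members called by edgeR and 0 by DESeq2 in each and 1 at an unadjusted p under 0.05. Lgals9 gave -0.27 ± 0.25 and 0.18 ± 0.26. With the replicate number as a block, the Cd274 difference from primary tumor became 1.88 ± 0.45 (adjusted p = 0.034). By their cell names, 3 of the 4 numbers mark libraries that share mice. Endothelial cells of the sites came from different clusters: host cluster 23 held 540 of the 552 of primary tumors, 464 of the 1636 of metastases and 14 of the 7882 of lungs. Within metastases, Cd274 was 1.82 CPM in cluster 23 (3 UMIs, 464 cells) and 14.2 CPM in the other endothelial clusters (41 UMIs, 1172 cells), while Lgals9 was 138 and 140.1 CPM. These other clusters held 7868 of the 7882 lung cells, at 36.0 CPM of Cd274. The part of adjacent lung tissue in the metastasis values was not tested.

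Some marker lists used to name leukocytes also differed in this class. The alveolar macrophage list summed to 704 to 4495 CPM in lung endothelium and 0.754 to 208 CPM in that of primary tumors, where Ear1, Siglecf and Fabp1 were at 0 UMIs, and the nonclassical monocyte list to 921 to 1118 and 128 to 399 CPM. Car4, in the alveolar macrophage list, was also a leading gene of endothelial host cluster 16, which held 1055 lung and 2 primary tumor cells. That sum is therefore not leukocyte RNA alone, and the part of endothelial genes in these sums was not tested. The neutrophil list (9.48 to 7586 and 4.52 to 34.5 CPM) and the C1q macrophage list (78.7 to 1062 and 158 to 1252 CPM) overlapped between the tissues. In endothelial cells without a Ptprc UMI, Cd274 stood at 22.8, 15.2, 33.2 and 43.7 CPM in the 4 lungs and at 12.6, 0, 2.84 and 2.26 CPM in the 4 primary tumors, which again did not overlap.

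The opposite directions of Cd274 in neutrophils and endothelium were tested as a difference of effects, a comparison chosen after the values were seen. The primary tumor minus lung difference in Cd274 was higher in neutrophils than in endothelial cells by 5.92 ± 0.89 (log2, edgeR adjusted p = 0.000169, 1.24% of genes called). It was higher in C1q macrophages than in endothelial cells by 4.16 ± 0.95 (edgeR adjusted p = 0.00799, 3.86%). Without unchallenged lung 6 these were 5.51 (adjusted p = 0.000223) and 4.95 (adjusted p = 0.00425). The metastasis minus lung difference was apart between neutrophils and endothelial cells by 2.91 ± 0.77 (edgeR adjusted p = 0.176, 0.0461% of genes called). Primary tumor and lung also differ in organ, and the part of the organ was not tested.

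In classical monocytes of primary tumors Havcr2 was called higher, 1 of 5 members where 2.21% of genes were called and 1.8% higher. It stood at 68.6, 49.3, 59.8 and 48.3 CPM in the lungs and at 128 and 92.3 CPM in primary tumor TME 1-3 and 4, which did not overlap. The difference was 1.10 ± 0.25 (log2, adjusted p = 0.0334). Cd86 gave 0.86 ± 0.21 (adjusted p = 0.0555), with lungs at 50.9 to 56.1 CPM and primary tumors at 94.2 and 83.6 CPM. The Havcr2 call was lost in 6 of 12 alternatives, including the fits without either primary tumor library and without unchallenged lung 6 (1.00, adjusted p = 0.0714). Lgals9 (0.66 ± 0.26, adjusted p = 0.192), Cd80 (1.22 ± 0.48, adjusted p = 0.199) and Cd274 (-0.50 ± 0.52) were not called.

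No member was called in other classes. In nonclassical monocytes Cd274 stood at 108, 89.7, 117 and 109 CPM in the lungs, 131, 161 and 190 CPM in metastasis TME 1-3, 4 and 6 and 28.1 and 41.5 CPM in primary tumor TME 1-3 and 4 (2 and 4 UMIs). The 3 tissues did not overlap, yet the differences missed the threshold over all genes (metastasis against primary tumor 2.10 ± 0.45, adjusted p = 0.298, against lung 0.59 ± 0.21, adjusted p = 0.704, and primary tumor against lung -1.51 ± 0.44, adjusted p = 0.521), in comparisons that called 0.0%, 0.213% and 0.116% of genes, in that order. Havcr2 and Cd86 differed by -0.57 to 0.65 in these comparisons, with SEs of 0.23 to 0.63. DESeq2 called none of the 3 members tested there, and 1 had an unadjusted p under 0.05 in each comparison. The share of all genes without overlap between these libraries was not counted, so the order of the tissues is a description.

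Of 5 members tested in C1q macrophages, edgeR and DESeq2 called 0 (2 in metastases and 1 in primary tumors against lung had an unadjusted p under 0.05, and 0 between the tumor sites), where edgeR called 6.04% of genes in metastases and 6.28% in primary tumors against lung. Between the 2 tumor sites 0 members and 0.0% of genes were called. The smallest edgeR adjusted p values in metastases against lung were those of Cd80 (1.52 ± 0.70, adjusted p = 0.232) and Cd274 (1.22 ± 0.57, adjusted p = 0.246), while Havcr2, Lgals9 and Cd86 gave 0.41 ± 0.34, 0.53 ± 0.29 and -0.50 ± 0.34. In primary tumors against lung the adjusted p was lowest for Lgals9 (0.71 ± 0.30, adjusted p = 0.162), followed by Cd80 (1.30 ± 0.67, adjusted p = 0.264), and Havcr2, Cd86 and Cd274 lay between -0.61 and 0.60. Between the tumor sites the 5 members lay between -0.18 and 0.62. Cd274 ranged from 3.76 to 38.5 CPM in lungs, 0 to 118 CPM in metastases and 27.6 to 34.9 CPM in primary tumors, all overlapping.

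In T cells 7 members were tested between metastasis and lung and 0 were called by edgeR or DESeq2, with 0 at an unadjusted p under 0.05 and 0.0112% of genes called. Pdcd1 differed by 1.11 ± 0.82 and Ctla4 by 0.84 ± 0.72 (log2, edgeR adjusted p = 1.00 for both), with 2 metastasis and 3 lung libraries, and Lag3, Havcr2, Cd86, Lgals9 and Cd274 lay between -0.58 and 0.79. Primary tumors gave 17 T cells and no test. In NK cells, B cells, dendritic cells, fibroblasts, ciliated cells and sorted melanoma cells edgeR and DESeq2 called 0 of the 1 to 3 members tested, with 0 at an unadjusted p under 0.05. EdgeR called 0.0% of genes there in NK cells, 0.0209% in B cells, 0.405% in ciliated cells and 0.00701% in melanoma cells, 0.944% in dendritic cells of primary tumors, and in fibroblasts 0.931% in metastases and 12.0% in primary tumors against lung and 1.01% between the tumor sites. In club cells, where no member passed the filter, 1.27% of genes were called. Metastasis against lung gave -0.56 ± 0.29 for Lgals9 and -0.68 ± 0.66 for Cd274 in NK cells, -0.22 ± 0.45 and 0.29 ± 0.58 in B cells, and -0.78 ± 0.62 and -0.95 ± 1.41 in fibroblasts. In fibroblasts of primary tumors against lung they gave -0.73 ± 0.54 and -1.79 ± 1.15, and between the tumor sites -0.05 ± 0.62 and 0.84 ± 1.52. Lgals9 in ciliated cells gave -1.24 ± 0.80. In dendritic cells of primary tumors Havcr2, Lgals9 and Cd86 gave 0.35 ± 0.30, 0.10 ± 0.52 and 0.77 ± 0.40. In melanoma cells of metastases against primary tumors Cd274 gave -0.93 ± 0.75 (edgeR adjusted p = 1.00), Lgals9 -0.45 ± 0.38 and Lag3 0.20 ± 1.31.

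The members' pathways were followed over 59 partner genes: B7 and CD28 family genes, nectins, further partners of Lag3 and Havcr2, TNF family co-stimulators, myeloid brakes, interferon response genes and T cell state factors. In metastasis neutrophils 1 of 19 tested rose (Lgals3, a galectin, 1.80 ± 0.35) and 2 fell, among them Nr4a1 at -1.99, with a median of -0.12 against -0.02 over all genes, of which 9.37% were called. In primary tumor neutrophils none of 19 was called by edgeR. In the C1q macrophages of metastases, where 6.04% of genes were called, 3 of 21 rose: the arginase gene Arg1, at 0 UMIs in the lung libraries and a mean of 2027 CPM in metastases, Lgals3 (1.58 ± 0.32) and Pvr, a TIGIT ligand (4.18 ± 0.98). Cmtm6, which stabilises PD-L1, fell at -0.99 ± 0.28 (adjusted p = 0.0407). In C1q macrophages of primary tumors against lung, where 6.28% of genes were called, Arg1, Pvr and Lgals3 were also called higher. Arg1 had a mean of 470 CPM there, and Pvr and Lgals3 rose by 3.54 ± 0.99 and 1.30 ± 0.37, while Icosl fell at -1.49 ± 0.38. The C1q macrophages of the tissues came from different clusters: leukocyte cluster 19, led by Arg1, held 0 of 369 lung, 91 of 241 metastasis and 376 of 2314 primary tumor cells of the class, and cluster 16 held 274, 21 and 342.

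In primary tumor endothelium 5 of 27 partners rose and 7 fell, with a median of -0.36 against -0.06 over all genes, of which 20.4% were called. Nectin2, a nectin bound by TIGIT's family, rose by 4.71 ± 0.50 (adjusted p = 7.68e-05), whereas Nectin3 (-2.10 ± 0.30), the interferon response factor Irf1 (-2.02 ± 0.29, adjusted p = 0.00043) and Ceacam1 (-1.47 ± 0.26) fell. In metastasis endothelium 2 of 27 rose and 0 fell, where 1.12% of genes were called: Nectin2 (2.88 ± 0.48) and Tnfrsf9, the co-stimulator 4-1BB (4.28 ± 0.91). In fibroblasts of metastases 1 of 31 rose and 0 fell (Nectin2, 3.47 ± 0.31), where 0.931% of genes were called. In fibroblasts of primary tumors 2 of 31 rose and 7 fell, where 12.0% were called: Nectin2 (1.75 ± 0.29) and the B7 family gene Cd276 (3.13 ± 0.61) rose, and Vsir (-2.78 ± 0.48) and Ikzf2 (-2.31 ± 0.36) were among those that fell. Fibroblasts of the tissues came from different clusters: in the order lung, metastasis and primary tumor, host cluster 12 held 1643, 23 and 3 cells, cluster 15 held 2, 40 and 1462, cluster 17 held 12, 269 and 932, and cluster 21 held 868, 168 and 0. Cluster 17 had Rgs5, from the pericyte or smooth muscle list, among its leading genes. No class of pericytes or smooth muscle was named, so the fibroblast class can hold such cells, mainly at the tumor sites. In T cells against NK cells 24 of 44 partners were higher and 8 lower, where 16.2% of all genes were called and the lists include genes picked for T cell biology. Among them Icos (3.60 ± 0.21) and Cd28 (2.42 ± 0.15) were higher and Eomes (-3.47 ± 0.19) lower. Eomes was also a marker by which NK cells were named, so its direction followed from the naming. The partners were not kept out of the clustering, so these counts are descriptions. In T, NK and B cells none of 43, 33 and 19 partners was called between metastasis and lung.

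Genes whose levels ran most like a member's were ranked by Pearson r of log2(mean CPM + 1) over 42 class and tissue groups, among 15417 genes. The groups share libraries and differ in depth, so r is a description. For Pdcd1 these were Foxp3 (0.95) and Ccr4 (0.95), for Ctla4 A630023P12Rik (0.93) and Sit1 (0.93), and for Lag3 Chdh (0.76) and Cd4 (0.71). Havcr2 ran with Bcl2a1a (0.96) and Clec4a3 (0.95), Cd274 with Pag1 (0.90) and Plk3 (0.88), and Pdcd1lg2 with Gm19951 (0.83) and Cd274 (0.81). Cd80 ran with Clec5a (0.88), Cd86 with Irf5 (0.92) and Lgals9 with Slfn5 (0.78).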

How the data were processed

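Single-cell RNA was captured with 10x Genomics 3′ chemistry. The authors made the deposited counts, raw UMIs per gene and cell, with Cell Ranger 6.1.1 on GRCm38 and filtered cells by detected genes and by ribosomal and mitochondrial share in Seurat 3.2.2; their normalised values were not used. Samples were mapped to groups by the labels. The cell names of unchallenged lung 1, metastasis MM 5 and primary tumor MM 4 and 5 show the group but another replicate number: the first was matched to its label as the only one left in its group and the others by mouse and sequencing run, so their numbers are less sure than their groups. Libraries with identical cells were counted once, among them metastasis TME 5 and 6 and primary tumor TME 5 and 6, which also stand under names of other mice, and metastasis TME 6, which also stands under an MM name.

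Cells were clustered with Seurat 5.3.0 (R 4.3.3) on 2000 variable genes without the members, 17 principal components and 20 neighbours, at resolution 0.5 over all cells and 1 within host cells and within leukocytes. A cluster was named from at least 3 markers with a log2 fold over 1 found in at least 10% of its cells. UMIs were summed per library and class (at least 20 cells) and tested with edgeR 4.0.16 (TMM, filterByExpr, quasi-likelihood F test) over all genes tested, with Benjamini-Hochberg adjustment at 0.05. Counts of members and partners called are over those past this filter. Tissue fits had tissue as the only term, and class contrasts had the library as a block. The fit for the difference of effects had 1 term for each class and tissue and no library term. Classes of the same library thus entered it as independent samples. A level with 0 UMIs has a limit of 3 counts. Intervals are 95%, exact, and cover counting error only. Shares used cells thinned to 1000 UMIs, except those of the T cell subsets and of neutrophils with both PD-1 ligands, which used all UMIs.

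The members, partner lists and markers were chosen with earlier results of these data known. Members are given in each comparison that tests them, those not called in part as a range, at most 4 called partners by adjusted p, and the 3 genes most like a member with at least 100 UMIs (the text gives the leading ones), among genes reaching 10 CPM in a group. The values of 1 called partner are not reported here. Alternatives were DESeq2 1.42.0, no filter, at least 10 cells, a replicate block, resolution 0.5, a pooled level, no thinning and leaving out each library. A run block, the levels and shares without unchallenged lung 6, and the levels, Pdcd1lg2 ratios and neutrophil cluster values without each library were added after seeing the data. The tissue test was run on simulated counts for neutrophils of primary tumors against lung only, over 4100 genes. It called 10% of 100 genes with a true log2 change of 1 and 71% of 100 genes with a change of 2. It also made 8 calls among unchanged genes. The class contrasts were not simulated. A member that was not called can therefore still differ by such amounts.

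Replicate numbers of metastasis and primary tumor libraries 1-3, 5 and 6 mark shared mice by the cell names, and number 4 marks different mice. In endothelial cells, deviations of same-numbered libraries from their tissue means correlated at 0.13 (1-3), -0.02 (4), 0.19 (5) and 0.17 (6) over 9830 genes. Numbers shared with the unchallenged lung mark no shared mouse.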

Additional observations from a re-analysis of the deposited data

Results flagged for a closer look

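Among 51 member, class and tissue groups of 4 libraries with at least 10 UMIs, 9 had a library far from the other 3 by Dixon's ratio, and chance flags about 1 in 20. Unchallenged lung replicate 6 was the high library in 5 of them: Ctla4 in B cells (10.2 CPM), and in endothelial cells Pdcd1lg2 (5.84, nearest 0.311), Havcr2 (38.6, nearest 6.84), Cd80 (10.6, nearest 0.990) and Cd86 (16.2, nearest 2.18). The epithelial classes of this library held 30.6 to 35.5 CPM of Havcr2 and 12.9 to 16.1 CPM of Cd86, and the part of background RNA in the flagged values was not tested.

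Unchallenged lung replicate 1 was low in neutrophil Cd274 (15.5 CPM, 1 UMI in 27 cells) and high in nonclassical monocyte Pdcd1lg2 (24.3 CPM, 16 UMIs in 136 cells). Cd80 in C1q macrophages of unchallenged lung 4 was low (3.76 CPM, 1 UMI in 39 cells). Lgals9 in C1q macrophages of metastasis TME 5 was high (151 CPM, 17 UMIs in 20 cells).

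Between cell classes, the primary tumor minus lung difference in Cd274 was apart by 5.92 (log2) between neutrophils and endothelial cells. It was apart by 4.16 between C1q macrophages and endothelial cells, both by a test of the difference itself (edgeR adjusted p = 0.000169 and 0.00799). This test was chosen after the values were seen and had no library term.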

How the results depend on the processing

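Of 1327 refits of single members, 1270 kept their side of the threshold, 48 fell below it and 9 passed it, and no call reversed. In 63 of the 1270 the sign changed where neither fit made a call. The number of members called in metastasis neutrophils against lung fell from 2 to 1 with DESeq2 and with at least 10 cells, to 0 with the replicate block, and ranged from 0 to 2 leaving out each library (0 without metastasis TME 6 or unchallenged lung 5). For primary tumor neutrophils it was 1 with the run block and 0 to 2 leaving out each library (0 without primary tumor TME 4). For classical monocytes it was 0 at resolution 0.5 and 0 to 2 leaving out each library. The replicate block called 1 member in endothelial cells in metastasis against lung, 1 against primary tumor, and 1 in ciliated cells. Without the filter 1 member was called in metastasis against primary tumor neutrophils, 1 in primary tumor C1q macrophages, 1 in ciliated cells and 1 in club cells. Nonclassical against classical monocytes gave 4 without it, against 3. T against NK cells gave 1 without the library as a block, and 1 to 3 leaving out each library, against 5. Dendritic cells against C1q macrophages gave 1 with DESeq2, 1 without the filter, 0 without the library block and 0 to 2 leaving out each library. Endothelial cells against fibroblasts gave 2 without the filter, and C1q macrophages against fibroblasts 4 without it and 4 with at least 10 cells. The causes were not tested. Pdcd1 in T cells averaged 47.4 CPM with at least 10 cells. Without thinning, shares of cells with a UMI were 21.8% (Cd274, alveolar macrophages), 1.80% (Pdcd1lg2, neutrophils), 3.32% (Pdcd1, T cells), 4.54% (Ctla4, T cells), 1.46% (Lag3, T cells), 37.8% (Havcr2, nonclassical monocytes), 9.25% (Cd80, neutrophils), 35.7% (Cd86, C1q macrophages) and 31.6% (Lgals9, endothelial cells). With thinning to 1000 UMIs and without unchallenged lung 6, the shares were 14.7% for Cd274 and 14.9% for Lgals9 in these classes. These differ from the unthinned shares in both depth and libraries, so the change is not that of leaving out the library alone. Few libraries per tissue and 1 to 3 UMIs behind several values limit all tissue comparisons, and sparse genes such as Tigit could not be tested.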

Other observations

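The sorted melanoma library metastasis MM 4 also held host leukocytes, which entered no comparison. Its 62 neutrophils had 90.8 CPM of Cd274 (22 UMIs) and 37.1 CPM of Pdcd1lg2 (9 UMIs), above the 15.5 to 54.6 CPM of Cd274 in the 4 unchallenged lungs, whose neutrophils held 0 to 2 UMIs of Pdcd1lg2. Its 21 T cells had 99.8 CPM of Pdcd1 (6 UMIs) and 33.3 CPM of Ctla4 (2 UMIs). By its cell name it came from the mouse of metastasis TME 4, whose 11 neutrophils held 0 UMIs of either ligand (0 UMIs allow up to 79.7 CPM there).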
